A study of Rattus norvegicus with 10 samples.

Results

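The suppressors of cytokine signalling (SOCS) were examined in the rat submandibular gland, a major salivary gland, together with the transducers they restrain. The set held 10 genes: Socs1 to Socs7, Cish, the transcription factor gene Stat3 and Il6st, which encodes the shared receptor subunit gp130. They were found by gene symbol, through the RefSeq accession that each probe carries. Of the 10 genes, 8 had a probe with such an accession, and these 8 had 9 probes out of 30367 on the array. Socs6 and Socs7 had no matched probe and were not analysed here. All 8 genes passed the filter on dim probes, among 14706 named genes tested. The genes were selected on the measured Socs3 intensity, which was lower in the hypertensive strain than in its control strain. Values of that contrast are therefore given for these genes as a description and without a p-value, and nothing rests on whether one of them passed a threshold.

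SOCS proteins are feedback inhibitors of the JAK-STAT pathway. A cytokine binds its receptor, Janus kinases (JAK) phosphorylate the receptor and STAT factors, and the activated STATs switch on target genes that include the SOCS genes themselves. The SOCS proteins then bind kinases or phosphorylated receptors through an SH2 domain, and their SOCS box recruits a ubiquitin ligase. SOCS3 is best known for limiting signals from gp130, and CISH and SOCS2 for limiting STAT5 signals of receptors such as that for growth hormone. In rodents the submandibular gland is sexually dimorphic, and its granular ducts store growth factors and kallikreins.

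The tested animals were 5 male spontaneously hypertensive rats (SHR), bred for hereditary hypertension. They were set against 5 male Wistar Kyoto rats (WKY), the normotensive strain related to it. The labels give an age of 14 weeks for all of them and list no treatment, and the design text describes the WKY rats as matched for age and weight. The 10 one-colour Agilent arrays, 5 per strain, are named by strain and by the number pair in the title. Levels are log2 processed intensities minus the 75th percentile of the same array, so 0 marks the brightness at that percentile. Levels of different probes were not compared with each other.

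STAT factors bind the palindromic letters TTCNNNGAA, so the stretches before the start sites were searched for it. The windows came from RefSeq for assembly GRCr8, in which 7 of the 10 genes were listed. Of all 33469 windows of 250 bases before an annotated start, 7.67% held the motif, which reads the same on both strands. Cish held 4 matches and Socs1 held 1, while the window of Socs4 held 0. Only 2 of all windows held at least 4 matches, and that of Cish was one of them. The listed start lies inside the annotated gene for the other 4: by 1207 bases for Socs3, 154 for Stat3, 6128 for Socs6 and 11360 for Il6st. Their windows, which also held 0 matches, therefore do not lie before the outermost start and are not shown. The first base of the matches in Cish lay at −241, −230, −136 and −119 relative to the start, and in Socs1 at −196. These 2 windows are shown because they hold the matches. They are chr8:116850719-116850968 and chr10:5389324-5389573, both on the plus strand, with the motif in capitals.
Cish: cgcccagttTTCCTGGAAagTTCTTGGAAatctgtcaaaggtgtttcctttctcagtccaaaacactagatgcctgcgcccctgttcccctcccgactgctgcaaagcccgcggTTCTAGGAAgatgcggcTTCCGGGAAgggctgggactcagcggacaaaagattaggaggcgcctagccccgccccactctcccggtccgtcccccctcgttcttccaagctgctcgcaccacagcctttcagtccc
Socs1: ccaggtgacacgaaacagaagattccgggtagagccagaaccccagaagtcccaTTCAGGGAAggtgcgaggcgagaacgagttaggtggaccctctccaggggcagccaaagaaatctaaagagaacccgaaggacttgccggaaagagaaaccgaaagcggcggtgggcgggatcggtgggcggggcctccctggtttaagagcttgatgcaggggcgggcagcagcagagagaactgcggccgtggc
A match describes the letters in the window and was not tested for binding.

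Between 94.8% and 97.7% of the 42877 spots were well above background on each array, and 0 were saturated. With 5 arrays per strain, their number sets the precision. Going by scan times recorded in the headers, the arrays fell into 3 scan passes. Pass 1 held SHR 2-3, 3-1, 3-3 and 3-4, pass 2 held SHR 2-1 with WKY 1-5, 4-1 and 4-2, and pass 3 held WKY 1-2 and 1-3. Strain and scan pass can therefore be separated within pass 2 alone, where SHR has 1 array. SHR 3-3 stood apart: its granular duct markers averaged 2.26, against 4.28 to 4.62 in the other SHR arrays and 4.22 to 4.38 in WKY. All 8 tested acinar and all 8 tested granular duct markers were well above background on all arrays. So were nearly all spots and all 13 T and NK cell markers, so this tells little about the tissue label.

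Socs3 was far lower in SHR. Its level was −2.19, −2.53, −2.45, −2.12 and −2.32 in SHR 2-1, 2-3, 3-1, 3-3 and 3-4, against 0.77, 0.69, −0.09, −0.31 and 0.17 in WKY 1-2, 1-3, 1-5, 4-1 and 4-2. Every SHR array lay below every WKY array, and the gap between the strains was wider than the spread within either of them. The log2 difference of SHR minus WKY was −2.57 ± 0.20 (SE, n = 5 per strain), a 5.93-fold lower signal. It was the 12th deepest difference among the 14706 genes. On the linear scale of the scanner the probe gave 76.6 to 119 units in SHR and 469 to 858 in WKY, over a local background of about 15 to 20, and was well above background on all 10 arrays. The authors' own log2 values ran from 6.56 to 6.84 in SHR and from 8.72 to 9.76 in WKY. In bulk tissue, fewer cells that express a gene and less RNA per cell cannot be told apart. A single probe with 1 spot measured Socs3, so no second probe of the gene stands beside it. Whether the strains differ in sequence under that probe was not tested.

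The lower Socs3 signal was also present within 1 scan pass. In pass 2 the SHR array had a level of −2.19, against −0.31 to 0.17 in the 3 WKY arrays, a difference of −2.11. Without SHR 3-3 the difference was −2.62. Within WKY, Socs3 spread more (SD 0.48) than within SHR (SD 0.17). The WKY arrays 1-2 and 1-3, scanned in pass 3, lay 0.81 above the mean of the other 3 WKY arrays, a split described after its values were seen. Among all genes, 0.653% differed by at least as much in that direction. The part of the scan pass in that split was not tested.

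**Figure D1:**
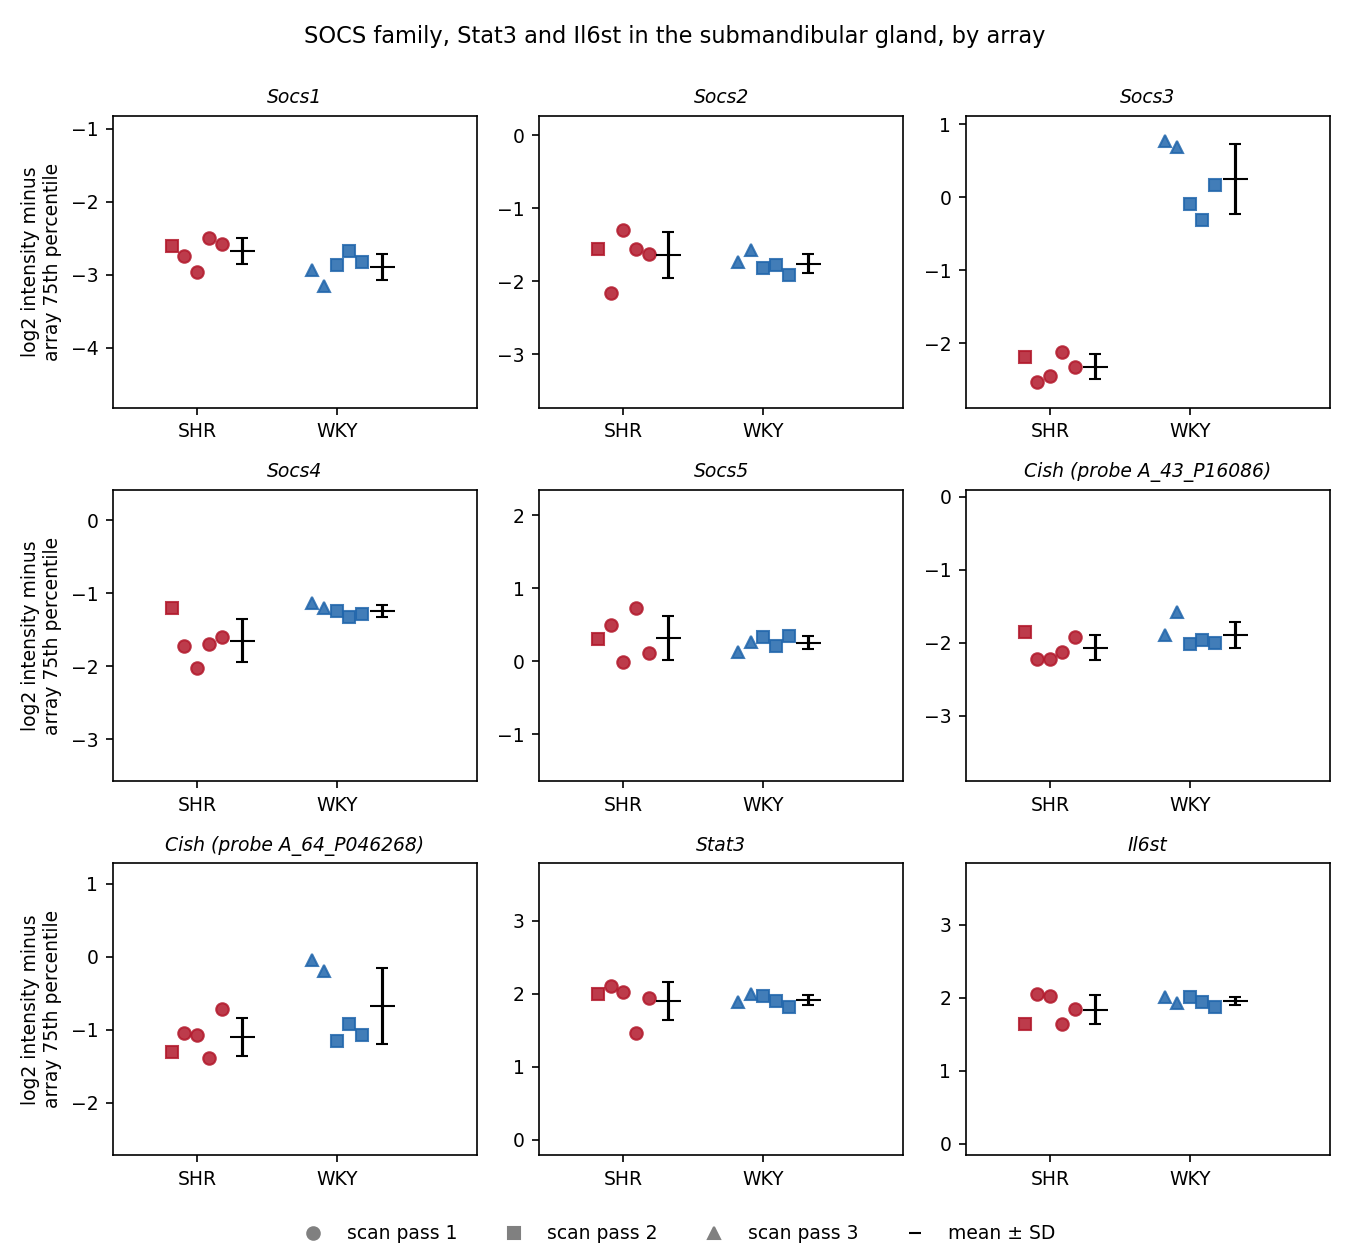
Level of each of the 9 probes in every array (y axis, log2 processed intensity minus the 75th percentile of the array) for 5 SHR and 5 WKY rats. Each panel spans the same height in log2 units, symbols mark the scan pass, and bars give the mean ± SD. Socs3 is the probe whose strains do not overlap.

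Of the 8 measured genes Socs3 was the 1 past the threshold of a limma adjusted p below 0.05, where 4.35% of all genes tested were called. It was also the 1 gene of the 8 whose strains did not overlap, which held for 7.24% of all genes. Among probes, 1 of the 9 was called, where 3.84% of all kept probes were. Nothing is read from these counts, since the set was chosen for it. The median log2 difference over the 8 genes was −0.06, beside −0.02 over all genes tested.

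Cish encodes the founding member of the family and had 2 probes. The brighter probe, which stood for the gene, had levels of −1.30, −1.04, −1.07, −1.39 and −0.72 in SHR 2-1, 2-3, 3-1, 3-3 and 3-4, against −0.05, −0.20, −1.16, −0.92 and −1.07 in WKY 1-2, 1-3, 1-5, 4-1 and 4-2. The strains overlapped: WKY 1-2 and 1-3 lay above all SHR arrays, and the other 3 WKY arrays lay among them. The log2 difference was −0.43 ± 0.22 (SE, n = 5 per strain), with a 95% interval of −0.91 to 0.05, and −0.25 within scan pass 2. These 2 high WKY arrays are the pair that was also high for Socs3, and for Cish they lay 0.92 above the other WKY arrays. The second Cish probe differed by −0.18 ± 0.11 and showed the split less: its level was −1.89 in WKY 1-2 and −1.58 in WKY 1-3, against −2.02 to −1.96 in the other WKY arrays. On both probes these were the 2 highest of the WKY arrays.

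Socs4, a family member known for restraining the epidermal growth factor receptor, had levels of −1.21, −1.72, −2.03, −1.70 and −1.60 in SHR 2-1, 2-3, 3-1, 3-3 and 3-4. In WKY 1-2, 1-3, 1-5, 4-1 and 4-2 they were −1.13, −1.20, −1.24, −1.33 and −1.29. The 4 SHR arrays of scan pass 1 lay below every WKY array, and SHR 2-1, scanned with WKY arrays, lay within the WKY range. The log2 difference was −0.41 ± 0.13 (SE, n = 5 per strain), with a 95% interval of −0.69 to −0.13. It was 0.08 within scan pass 2 and −0.52 without SHR 2-1. Strain and scan pass cannot be told apart for the 4 lower arrays.

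Socs1, which blocks Janus kinases directly and limits interferon signals, had levels of −2.60, −2.74, −2.96, −2.49 and −2.58 in the SHR arrays in the same order, against −2.93, −3.15, −2.87, −2.67 and −2.82 in WKY. The difference was 0.21 ± 0.11 (95% interval −0.03 to 0.46). The 3 SHR arrays 2-1, 3-3 and 3-4 lay above all WKY arrays, and the other 2 lay among them. Its sign was opposite to that of Socs3.

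Socs2, the regulator of growth hormone signals, was spotted 10 times on each array, with a coefficient of variation between spots of 3.66% to 9.80%. Its mean level was −1.64 ± 0.32 in SHR and −1.76 ± 0.13 in WKY (SD, n = 5 each). SHR held both the lowest array, SHR 2-3 at −2.16, and the highest, SHR 3-1 at −1.30, with the WKY arrays between them. The difference was 0.12 ± 0.14 (95% interval −0.18 to 0.43), and 0.28 within scan pass 2. Socs5, which like Socs4 restrains the epidermal growth factor receptor, had a mean level of 0.32 ± 0.30 in SHR and 0.25 ± 0.09 in WKY (SD, n = 5 each). The difference was 0.07 ± 0.13 (95% interval −0.21 to 0.35), and −0.03 without SHR 3-3.

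Il6st, the gp130 subunit through which interleukin 6 and its relatives signal, had levels of 1.64, 2.05, 2.03, 1.65 and 1.85 in SHR 2-1, 2-3, 3-1, 3-3 and 3-4, against 2.02, 1.93, 2.01, 1.95 and 1.87 in WKY. The strains overlapped, with 3 SHR arrays below and 2 above the WKY range. The difference was −0.11 ± 0.10 (95% interval −0.33 to 0.10), and −0.31 ± 0.15 (SE) within scan pass 2. Stat3, the factor that gp130 activates, had levels of 2.00, 2.11, 2.02, 1.46 and 1.94 in SHR, against 1.88, 2.00, 1.97, 1.90 and 1.82 in WKY. SHR 3-3 lay apart from its strain's other 4 arrays, at −0.56 from their mean. The difference of Stat3 was −0.01 ± 0.12 (95% interval −0.26 to 0.24) with all arrays and 0.10 ± 0.08 without SHR 3-3. For both genes the interval excludes a difference of the size seen for Socs3, and smaller differences within it cannot be told from 0 with these arrays.

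**Figure D2:**
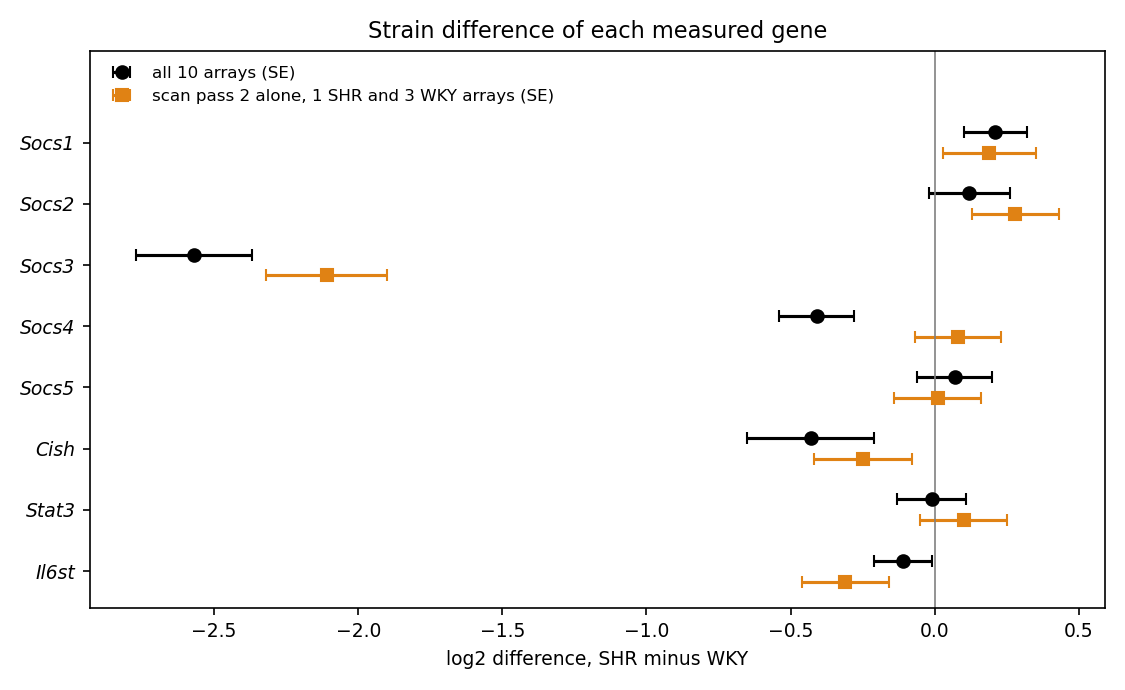
Log2 difference of SHR minus WKY (x axis) for each of the 8 measured genes, with its SE. Circles use all 10 arrays and squares use scan pass 2 alone, with 1 SHR and 3 WKY arrays. Socs3 lies at −2.57 and −2.11, and the other 7 genes lie between −0.43 and 0.28.

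The rest of the pathway was read from 8 gene lists with 121 genes outside the set, 110 of them tested. A few genes stand in more than 1 list. At the same limma threshold of 0.05, SHR had 2 of them higher and 6 lower, together 7.27%. Over all genes tested 1.5% were called higher and 2.84% lower. The median difference of the 110 genes was 0.04. With the scan pass as a block 0 of them were called, where 44 of all genes were. Without WKY 1-3 or WKY 4-1 the counts were 1 higher and 2 lower, without WKY 4-2 they were 1 and 4, and without SHR 3-4 or WKY 1-2 they were 2 and 3.

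Ligands and receptors of the gp130 group gave no call in either direction among 13 tested genes (median 0.04, and −0.03 with the scan pass as a block). With quantile normalisation or the authors' values 1 was called, Ebi3. The widest differences with all arrays were 0.39 ± 0.22 (SE, n = 5 per strain) for Il11ra1, the interleukin 11 receptor, and 0.27 ± 0.10 for Ebi3, a subunit shared by heterodimeric cytokines of the interleukin 12 family. Il11ra1 differed by 0.15 without SHR 3-3 and by 0.10 with the scan pass as a block. Il6 itself differed by 0.09 ± 0.24 and its receptor Il6r by −0.15 ± 0.24. The Il6 level was −2.78 in SHR 3-4, against −4.39 to −3.95 in the other SHR arrays and −3.99 to −3.90 in WKY. The genes that STAT3 is known to induce also gave no call among 26 tested (median 0.06). Bcl6, a transcriptional repressor, had a difference of 0.87 ± 0.27, which was 0.05 with the scan pass as a block and 1.06 without SHR 2-1, where it was called (limma adjusted p = 0.0320). Fgg, the fibrinogen gamma chain, had −0.49 ± 0.19 and was well above background on 3 of 5 SHR and all 5 WKY arrays. Pim1 and Bcl3, both known STAT3 targets, differed by 0.01 ± 0.13 and 0.01 ± 0.08. Some other genes of the list differed more, with 0.42 ± 0.28 for Junb, 0.41 ± 0.20 for Myc and −0.31 ± 0.24 for Pim3. Junb was highest in SHR 3-4, at 4.32, against 2.79 to 3.11 in the other SHR arrays. Myc was highest in SHR 3-3, at 0.47, against −0.72 to −0.46 in the other SHR arrays. With the scan pass as a block Myc differed by −0.09. Of the 26 differences 9 were below 0.

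Genes that STAT5 induces gave no call among 11 (median 0.16). With normexp, quantile normalisation, median scaling or the authors' values 1 was called, Bcl2. Differences in the main comparison were 0.33 ± 0.25 for Id1, an inhibitor of basic helix-loop-helix factors, and 0.33 ± 0.11 for the survival gene Bcl2. Partners of the SOCS box gave none among 5 (median 0.03, and −0.02 with normexp background correction), with 0.11 ± 0.09 for Eloc, elongin C, and 0.10 ± 0.13 for the cullin Cul5.

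The Janus kinases and the other STATs had a median difference of −0.28 over 9 tested genes, which was −0.12 with normexp and −0.07 with the scan pass as a block. Stat2 differed by −0.39 ± 0.12, Stat4 by −0.37 ± 0.10, Stat6 by −0.36 ± 0.15 and Jak3 by −0.28 ± 0.09 (SE, n = 5 per strain), none of them past the threshold. Jak1 differed by −0.09 ± 0.14, Jak2 by −0.17 ± 0.10, Stat5a by 0.07 ± 0.17 and Stat5b by 0.11 ± 0.12, which did not pass either.

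Receptors outside the gp130 group had 3 of 18 lower and 0 higher (median −0.16, with −0.08 under normexp and −0.10 with the scan pass as a block). Ifngr2, a chain of the interferon gamma receptor, fell by 0.48 ± 0.09 (limma adjusted p = 0.00797), with SHR arrays at −0.81 to −0.50 and WKY arrays at −0.32 to −0.12. It kept its call without any 1 array. Il2ra, the interleukin 2 receptor alpha chain, fell by 0.41 ± 0.09 (limma adjusted p = 0.0234), a call lost without SHR 2-3, SHR 3-4, WKY 1-2 or WKY 4-1 (up to 0.0688) and with normexp. Il10rb, a chain shared by interleukin 10 family receptors, fell by 0.51 ± 0.13 (limma adjusted p = 0.0457). That call was lost without any 1 array other than SHR 2-1 (up to 0.109) and with no filter on dim probes (0.0509). The Il10rb difference was −0.18 with the scan pass as a block and in pass 2 alone.

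Other inhibitors of the pathway had 2 of 10 lower and 0 higher (median 0.05, and −0.02 with the scan pass as a block). Usp18, which restrains the type I interferon receptor, fell by 0.52 ± 0.11 (limma adjusted p = 0.0168). Its second probe differed by −0.95, and the call was lost without WKY 1-3 (0.0529 in limma). Ptprc, the phosphatase CD45 that marks all leukocytes, fell by 0.70 ± 0.17 (limma adjusted p = 0.0343). Its second probe differed by −0.30. It was lowest in SHR 3-3, at −2.57, against −1.83 to −1.68 in the other SHR arrays and −1.42 to −1.02 in WKY. Its call was lost without SHR 3-4 or any of WKY 1-2, 1-3, 4-1 and 4-2 (up to 0.0858), and with normexp, quantile normalisation, the authors' values or the mean of all probes. The phosphatase Ptpn1 differed by 0.38 ± 0.11, and Ptpn2, Ptpn6 and Ptpn11 by 0.08 ± 0.07, 0.05 ± 0.10 and 0.05 ± 0.09, none past.

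Immediate early genes, which respond within minutes to many stimuli, had 2 of 21 higher and 0 lower (median 0.23, and 0.01 with the scan pass as a block). The mean level of the list was −0.34 in SHR 3-4, against −1.04 to −0.94 in the other SHR arrays and −1.19 to −0.97 in WKY. Dusp5, a phosphatase of the kinase ERK, rose by 1.02 ± 0.20 (limma adjusted p = 0.0124), with SHR arrays at 0.19 to 1.34 and WKY arrays at −0.40 to 0.04. It kept its call without any 1 array. Ccn1, a matricellular protein, rose by 1.46 ± 0.32 (limma adjusted p = 0.0240) and was highest in SHR 3-4 at 2.34, against 0.36 to 0.64 in the other SHR arrays. Its call was lost without WKY 1-3, 4-1 or 4-2 (up to 0.0610).

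**Figure D3:**
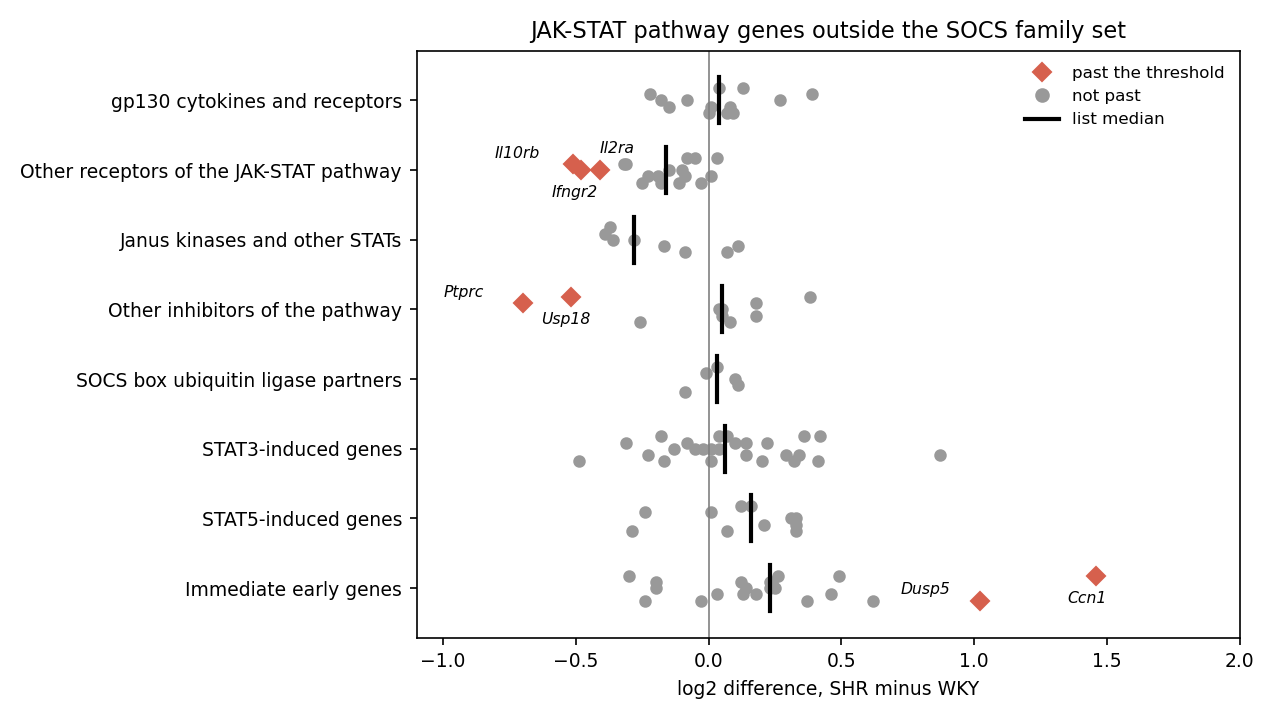
Log2 difference of SHR minus WKY (x axis) for the genes of 8 lists around the SOCS set, 1 point per gene, with 1 gene not shown. Diamonds are genes past the threshold, circles are genes that are not, and bars are list medians, which run from −0.28 to 0.23.

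Cell markers were read beside these values. Of all genes tested 2.84% were called lower and 1.5% higher, and their median difference was −0.02. Of 15 tested macrophage and dendritic cell markers 3 were lower, 0 were higher and all 15 differences were below 0 (median −0.47, and −0.32 without SHR 3-3). The mean level of that list was −1.38 to −0.44 in SHR and −0.46 to −0.01 in WKY. In SHR 14 of the 15 markers were well above background on all arrays, and in WKY all 15 were. Neutrophil markers had no call among 9 (median −0.09) and T and NK cell markers none among 13 (median 0.04), nor did 6 B and plasma cell markers (−0.15). Fibroblast markers had 1 of 8 lower (median −0.50, and −0.20 without SHR 3-3), and endothelial markers 1 of 9 higher (0.05). Acinar markers had 1 of 8 lower (median 0.23), and the lists for granular ducts (8 tested, 0.02), myoepithelium and smooth muscle (8, 0.01) and adipocytes (5, −0.26) had no call. The granular duct median was −0.26 with normexp, −0.24 with quantile normalisation or the authors' values and 0.29 without SHR 3-3. With quantile normalisation or the authors' values 1 adipocyte marker and 1 T or NK cell marker were called, and 1 T or NK cell marker with normexp. The fibroblast call was lost with normexp and with median scaling. With the scan pass as a block the strain contrast rests on 1 SHR array, so medians alone are given for that fit. The median was −0.51 for macrophage and dendritic cell markers and −0.33 for fibroblast markers. It was 0.22 for endothelial and 0.27 for acinar markers. The part of these cell types in the lower Socs3 signal was not tested.

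The genes most like Socs3 were those with the smallest root mean square difference between log2 profiles over the 10 arrays, each centred on its own mean. They were Ms4a8 (0.339), Tbc1d10c (0.346), Dmac2l (0.419), Glb1l2 (0.445) and Ptprj (0.456), beside a median of 1.32 over all genes. The closest of the other 7 genes of the set was at 1.11. Having been picked for likeness to Socs3, all 5 had lower levels in SHR, with log2 differences from −2.97 in Dmac2l to −1.75 in Glb1l2. Tbc1d10c also had the WKY split: its level was −1.48 and −1.51 in WKY 1-2 and 1-3, against −2.73 to −2.52 in the other WKY arrays and −4.40 to −3.76 in SHR. Glb1l2 had it as well, with −1.46 and −1.45 in WKY 1-2 and 1-3, against −2.14 to −1.86 in the other WKY arrays. Ms4a8, by contrast, lay between −2.95 and −2.48 in SHR and between −0.02 and 0.09 in all 5 WKY arrays. Ptprj, a receptor phosphatase, had a second probe with a difference of 0.28, so its probes went opposite ways.

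**Figure D4:**
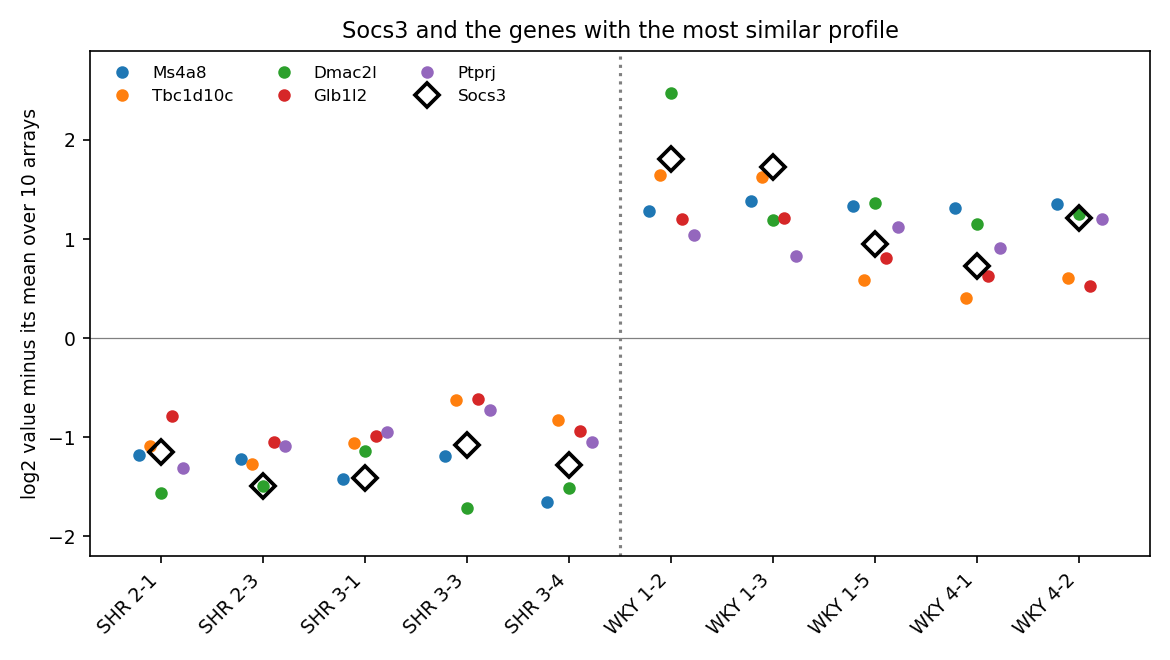
Log2 value of each gene minus its mean over the 10 arrays (y axis), for Socs3 (open diamonds) and the 5 genes with the closest profile (dots), by array (x axis). All 6 genes are below their mean in the 5 SHR arrays and above it in the 5 WKY arrays.

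Tested genes near Socs3 were looked at after its values had been seen, and genes that were not tested were passed over. Of the 5 nearest tested genes on each side in the gene order of GRCr8, 0 of 10 were past the threshold. Over all genes tested 4.35% were, so so few genes say little about the region. The nearest tested gene on each side, Birc5 and Cyth1, differed by −0.05 ± 0.08 and −0.04 ± 0.12 (SE, n = 5 per strain). Whether untested genes lie between them and Socs3 was not examined. The widest difference of the 10 was that of Lgals3bp, a galectin-binding glycoprotein, at −0.87 ± 0.29 (limma adjusted p = 0.113). Its strains did not overlap, which held for 7.24% of all genes.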

How the data were processed

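Messenger RNA of 10 submandibular glands was measured on one-colour Agilent arrays. The submitters' scanner files came from Feature Extraction 11.0.1.1, per the file headers. Per the file headers, its processed intensity had the background subtracted and was detrended within the array, without scaling between arrays. A second set of values, the authors' deposited table, is on the log2 scale with the same median (7.19) in each column; its steps are not given in the sources.

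Spots marked as outliers were set to missing, spots of 1 probe were averaged, and each array's log2 intensity was reduced by its 75th percentile. A probe was kept if 5 or more of the 10 arrays had it well above background (29266 of 30367). The scanner files used have no gene name column, so symbols came from RefSeq accessions in the GRCr8 gene table: 17997 probes had 1 symbol, 0 several and 12370 none. The brightest kept probe stood for a gene. SHR was compared with WKY with limma 3.58.1 in R 4.3.3, without covariates, with Benjamini-Hochberg adjustment over 14706 genes at 0.05. Tests were two-sided. The design text gives 5 rats per strain, which matches 1 rat per array; if arrays shared animals, the p-values would measure technical spread only.

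The genes and lists were chosen with earlier results of these data known. Named are all genes of the set, up to 3 called genes per list (or 2 given as values) and the 5 closest to Socs3; others named were chosen after their values were seen. Alternatives were normexp (offset 50, on the median signal) with quantile normalisation, quantile normalisation, median scaling, the authors' values, no filter or one on all arrays, the mean of all probes, the scan pass as a fixed or random block or pass 2 alone, and leaving out each array. The fit was tested on simulated data. The values of 1 gene of the lists, which is counted in the totals, are not reported here.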

Additional observations from a re-analysis of the deposited data

Results flagged for a closer look

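In groups of 5 arrays, an array was marked when its gap to the nearest other array, divided by the range of the strain, exceeded 0.71. Of 60 groups looked at 7 were marked, where chance marks about 1 in 20 of groups that are unrelated and not picked by their values. These groups share the same arrays, and many of the genes were named for their difference or their likeness to Socs3. The count was therefore not read as an excess. SHR 3-3 was the marked array in 4 of them. It was lowest for Stat3 (ratio 0.743, 1.46 against 1.94 in the next array) and for Ptprc (0.832, −2.57 against −1.83). It was highest for Il11ra1 (0.758, −0.50 against −1.50) and for Cul5 (0.747, −2.03 against −2.52). SHR 3-1 was lowest for Id1 (0.744, −2.58 against −1.80), and SHR 3-4 was highest for Ccn1 (0.857, 2.34 against 0.64). WKY 1-2 was highest for Dmac2l (0.839, 2.01 against 0.90). Neither Socs3 nor the other SOCS genes had a marked array.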

How the results depend on the processing

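The Socs3 difference, for which the set was chosen, was −2.02 with normexp, a move of more than the SD of the WKY arrays (0.48). Without 1 array it ran from −2.71 to −2.44. The number of called genes of the set was 1, or 2 with the scan pass as a random block and without SHR 2-1, and so was that of probes (1 to 2 without 1 array); the second was Socs4.

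Of all genes 639 were called: 44 with the scan pass as a block, 52 in pass 2 alone and 3448 with it as a random block, whose estimated correlation was −0.192. Without 1 array, 342 (WKY 1-3) to 723 (SHR 3-3) were called, with 370 without WKY 1-2 and 415 without WKY 4-1. Pathway genes called higher, 2 in the main comparison, numbered 4 with normexp, 5 with quantile normalisation, 5 with the authors' values, 0 with the block, 0 in pass 2 alone, 13 with the random block and 1 to 3 without 1 array. Those called lower, 6, numbered 0 with the block, 0 in pass 2 alone, 18 with the random block and 2 to 7 without 1 array. Cul5 ran from −0.01 (without SHR 3-3) to 0.18 without 1 array and was not called in these. Fewer arrays carry the strain contrast in pass 2 and in the fixed block, where it rests on SHR 2-1. With the random block the SE of every measured gene of the set was smaller than in the main comparison. It was 0.08 against 0.12 for Stat3 and 0.10 against 0.13 for Socs4. Otherwise the cause of these changes was not tested. No paired analysis was possible because the title numbers of the strains do not overlap.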
